A study of Mus musculus with 8 samples.

Results

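Genes of the autophagy core machinery and of mitophagy were followed in RNA sequencing of immortalized mouse embryonic fibroblasts. The rule that picks them uses gene names and no measured values, although it was drawn up with earlier results of these data known. They comprise every gene named Atg plus a number (18 genes) and 22 named mitophagy receptors, cargo receptors and core factors, 40 in all of 49315 genes listed in the files. The study compared 4 libraries of fibroblasts with the genotype Opa1-/- and 4 of Opa1-/- fibroblasts into which OPA1 had been put back (Opa1-/- + OPA1). OPA1 is a dynamin-like GTPase that fuses mitochondrial inner membranes and shapes cristae. Both groups carry the Opa1 deletion, and the labels name no treatment of either. How OPA1 was expressed, whether each line was a clone, and the age of the embryos are not stated in the sources used. Wild-type fibroblasts were not analysed here.

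Autophagy encloses cytoplasm in a double membrane, the autophagosome, and delivers it to the lysosome. The ULK1 kinase complex starts the process, a lipid kinase complex built around BECN1 marks the membrane, ATG9 and ATG2 proteins supply lipid, and a ubiquitin-like conjugation system attaches proteins of the Atg8 family (LC3 and GABARAP) to the growing membrane. In mitophagy the cargo is a mitochondrion. It is recognised either by receptors in its outer membrane that bind Atg8 proteins directly (BNIP3, NIX, FUNDC1, FKBP8) or, after PINK1 has marked a damaged mitochondrion, by soluble receptors that bind ubiquitin.

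Values are the authors' deposited TPM (transcript abundance relative to the library total), a level per unit of gene length, scaled here between libraries. Differences are Opa1-/- minus Opa1-/- + OPA1 on the scale of log2(scaled TPM + 1), which understates changes of low genes. Each adjusted p-value comes from limma-trend, adjusted by the Benjamini-Hochberg method over 14272 genes, and genes with an adjusted value under 0.05 count as called. The labels do not say that libraries of a group came from separate cultures, so each p-value refers to the spread among the libraries alone, and that spread may be technical. In bulk RNA, fewer cells of a kind and less RNA per cell cannot be told apart. Depth, recovered from the steps between low TPM values, lay between 53.0 and 57.7 M assigned reads per library. Opa1 itself was at 13.9 ± 1.05 against 14.8 ± 0.530 TPM (SD, n = 4 each), with overlapping ranges (adjusted p = 0.306), so total Opa1 RNA is no check on which group a library belongs to. Of 10 fibroblast markers 8 were at a mean of 1 TPM or more, with summed levels of 2217 to 2485 TPM in Opa1-/- and 2659 to 2685 TPM in Opa1-/- + OPA1 libraries, while Pdgfra was under 1 TPM and Lum near 0. Vim, at a mean of 1412 against 1368 TPM, makes up most of these sums. Of the 8 tested markers Col1a1, Col1a2, Pdgfrb, Dcn and S100a4 fell and Col3a1 rose in Opa1-/- libraries (75% called, against 33.0% of all genes). S100a4 was at 74.3 against 132 TPM. Of 16 markers of other cell types 4 reached 1 TPM (Cdh1, Cd68, Tubb3 and Alb), with sums of 43.5 to 59.7 against 48.9 to 59.2 TPM, and Cdh5, Pecam1, Ptprc, Adgre1, Cd3e, Sox2, Myod1 and Myog were at or near 0. Cdh1, an epithelial cadherin, was higher in Opa1-/- libraries and Tubb3, a neuronal tubulin, lower (50% of 4 tested called, against 33.0%). Of the other epithelial markers, Epcam was at 0.416 against 0.0975 TPM, without overlap. Krt5 was at 0.610 against 0.335 TPM, with overlap, and both were too low to be tested. Mitochondrial genes made up 2.67% to 3.35% of TPM in Opa1-/- and 5.33% to 5.77% in reconstituted libraries. The part of these markers and shares in the results was not tested.

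All 40 genes were found in the files, and 39 passed the filter of 1 TPM in at least 4 libraries. The remaining gene was Atg9b. Levels covered a wide range that was much the same in both groups. Gabarap was highest, at 211 ± 9.42 TPM in Opa1-/- and 205 ± 8.58 TPM in Opa1-/- + OPA1 libraries, followed by Fkbp8 at 113 ± 4.49 and 119 ± 2.26 TPM. Gabarapl1, Atg101, Tax1bp1, Tbk1, Pgam5 and Atg5 came next, all with group means between 54.1 and 92.9 TPM. The ranges of Tax1bp1 and Tbk1 overlapped each other, as did those of Pgam5 and Atg5, so the order among these neighbours is not fixed by the data. The median of the 39 genes was 22.1 TPM, against 15.4 TPM over all genes tested. At the low end, 7 genes had a mean under 10 TPM. These were Atg9a, Atg4d, Atg14, Atg10, Atg4c, Atg16l2 and Atg9b, the last at 1.10 ± 0.312 and 0.792 ± 0.0593 TPM.

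**Figure D1:**
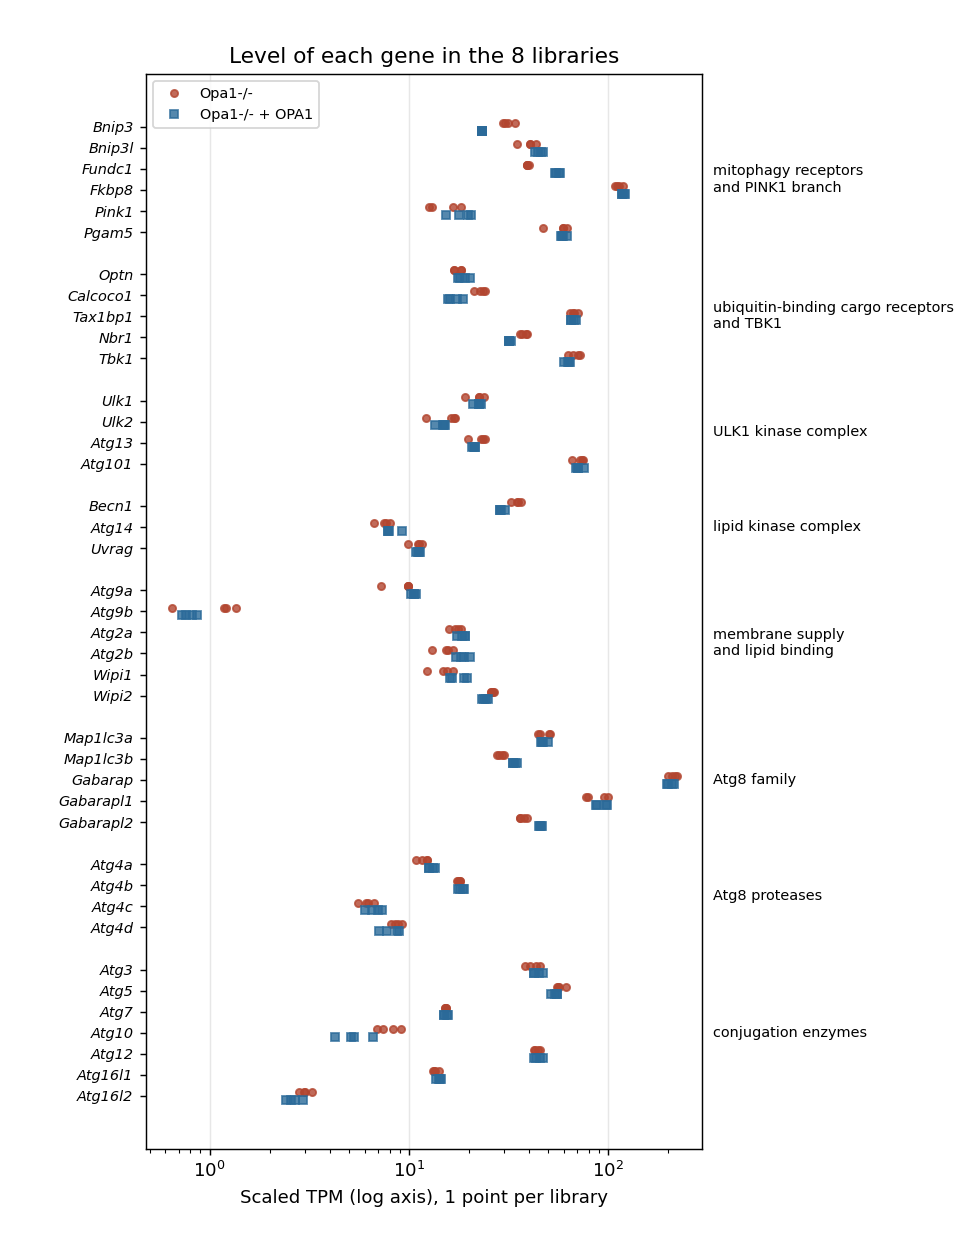
Scaled TPM (log axis) of the 40 genes in each of the 8 libraries, ordered by role, with circles for Opa1-/- and squares for Opa1-/- + OPA1. Gabarap lies highest and Atg9b lowest in both groups, and for most genes circles and squares share the same range.

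Between the groups, 10 of the 39 genes were called. The background was 33.0% of all 14272 genes, against 25.6% of these, so the share called was not above that of genes in general. Bnip3, Calcoco1, Nbr1, Becn1, Wipi2 and Atg10 rose in the Opa1-/- libraries (6 genes, background 16.3%). Fundc1, Gabarapl2, Map1lc3b and Atg2b fell (4 genes, background 16.8%). No gene reached a 2-fold difference, and the ratios of group means among called genes ran from 0.706 (Fundc1) to 1.49 (Atg10). The median difference over the 39 genes was -0.02, against -0.00 over all genes tested. The libraries of the groups did not overlap for 12 genes (background 36.3%), the 10 called and Atg4a and Atg9a, both lower. With the median difference of each chromosome removed from every library, 7 of the 39 genes were called higher and 2 lower. Of all genes 15.3% and 11.2% were under the same setting. The set changed, as Wipi2, Gabarapl2, Map1lc3b and Atg2b were no longer called. Atg4a and Fkbp8 were called higher there, and Wipi1 lower.

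**Figure D2:**
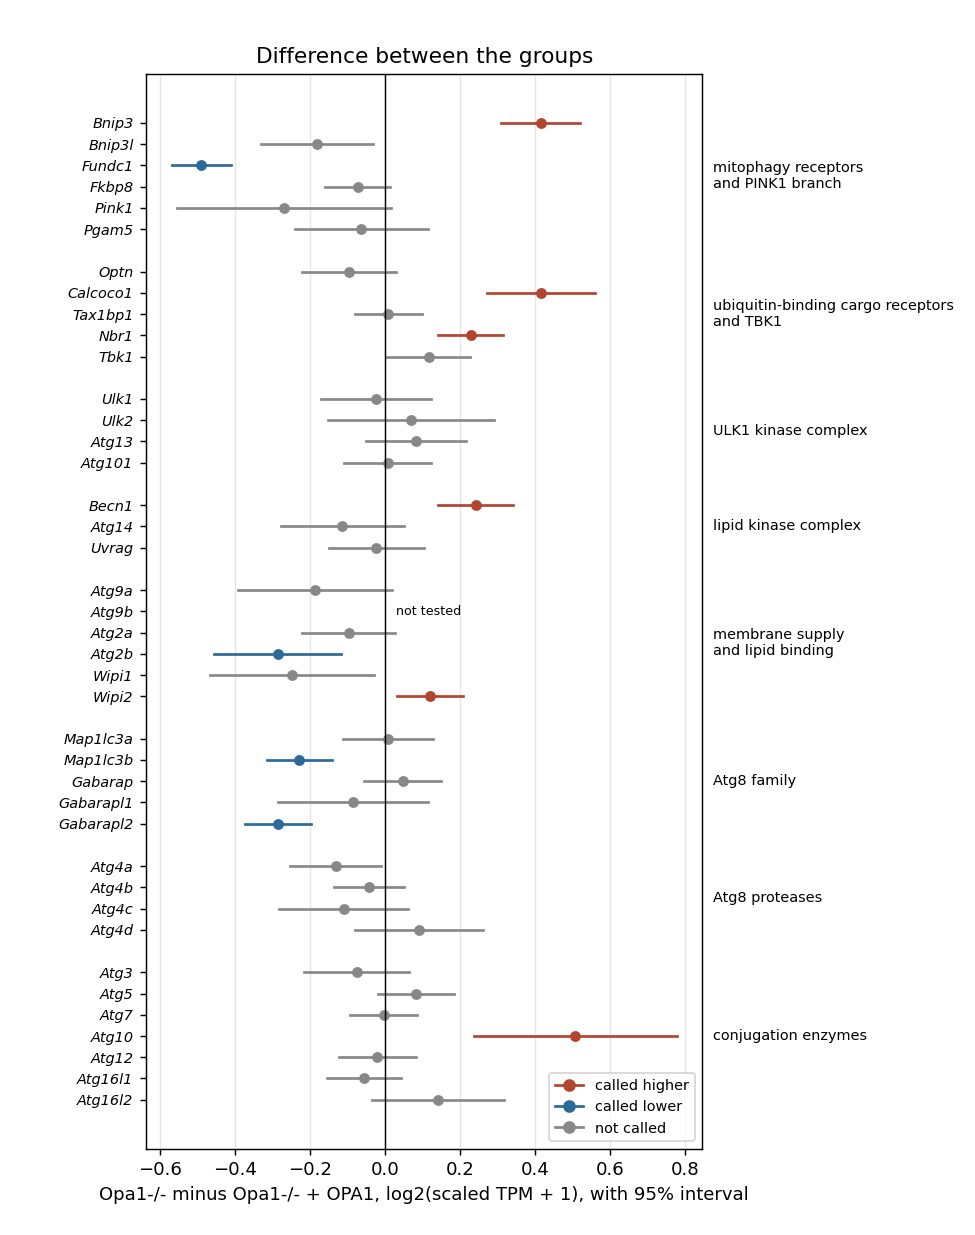
Difference between the groups for the 39 tested genes, as log2(scaled TPM + 1) in Opa1-/- minus Opa1-/- + OPA1, with 95% confidence intervals from limma-trend and colours for the call. The 10 called genes stand on both sides of 0, and the roles do not share a direction.

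Bnip3, Calcoco1, Becn1 and Atg10 were called higher under every processing alternative, and the promoter sequences of Bnip3, Calcoco1 and Atg10 are shown from RefSeq (GRCm38.p6). Each window runs 5′ to 3′ on the gene's strand from 250 bases before to 50 bases after a transcription start. CACGTG, the E-box read by MYC and the TFEB family, ACGTG, the core of the site of hypoxia-inducible factors, which also lies inside CACGTG, and TGATGNAAN, a form of the site bound by ATF4 with C/EBP factors, were searched on both strands. Capitals mark matches. The windows are chr7:138909457-138909756 for Bnip3, chr15:102722129-102722428 for Calcoco1 and chr13:91223938-91224237 for Atg10, all on the minus strand.
Bnip3: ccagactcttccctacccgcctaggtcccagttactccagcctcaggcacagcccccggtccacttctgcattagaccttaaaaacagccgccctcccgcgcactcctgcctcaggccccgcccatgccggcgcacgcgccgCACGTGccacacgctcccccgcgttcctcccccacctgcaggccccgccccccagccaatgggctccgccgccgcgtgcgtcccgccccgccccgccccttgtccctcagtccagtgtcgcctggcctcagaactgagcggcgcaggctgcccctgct
Calcoco1: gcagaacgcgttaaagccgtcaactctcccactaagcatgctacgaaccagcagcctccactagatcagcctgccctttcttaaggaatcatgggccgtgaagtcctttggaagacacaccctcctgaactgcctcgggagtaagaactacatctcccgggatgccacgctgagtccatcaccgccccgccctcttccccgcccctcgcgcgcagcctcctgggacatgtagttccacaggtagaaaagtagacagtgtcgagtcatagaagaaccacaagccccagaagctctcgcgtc
Atg10: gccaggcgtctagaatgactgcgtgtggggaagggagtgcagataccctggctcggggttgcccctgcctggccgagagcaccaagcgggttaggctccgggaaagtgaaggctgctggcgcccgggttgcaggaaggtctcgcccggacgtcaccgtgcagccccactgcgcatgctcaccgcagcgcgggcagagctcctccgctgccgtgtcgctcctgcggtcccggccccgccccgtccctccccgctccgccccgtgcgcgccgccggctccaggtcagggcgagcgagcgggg
The Bnip3 window holds a CACGTG whose first base is at -108 from the start, and neither of the other windows holds any of the motifs. A table entry was found for 34 of the 40 genes, with 38 windows. CACGTG occurred in 15.8% of these windows and in 7.15% of all 32851 promoter windows, ACGTG in 44.7% and 19.6%, and TGATGNAAN in 0 of the 38 and 3.95% of all. Among the 6 windows of genes called higher, CACGTG occurred in 1 and ACGTG in 2. Among the 4 windows of genes called lower, they occurred in 0 and 2. These matches are a description of the letters and show no binding.

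Among the mitophagy receptors of the outer membrane, Bnip3 rose and Fundc1 fell. With Pink1 and Pgam5 included, 2 of 6 genes were called (33.3%, against 33.0% of all genes). Bnip3, a BH3-like protein whose gene is a well-known target of hypoxia-inducible factors (chromosome 7, 138890836 to 138909519, minus strand, GRCm38), was at 31.3, 34.0, 29.8 and 30.5 TPM in Opa1-/- libraries 1 to 4. In Opa1-/- + OPA1 libraries 1 to 4 it was at 23.2, 23.3, 23.3 and 23.3 TPM. Every Opa1-/- library lay above every reconstituted library, and the reconstituted libraries were nearly equal. The difference was 0.42 (SE 0.05, adjusted p = 0.000274). It was 0.30 (adjusted p = 0.00180) with chromosome medians removed. Of the 50-base words in its transcripts, 47.2% recur in transcripts of other annotated genes, and 22.3% of its exon bases are overlapped by Gm45507 on the opposite strand, a gene listed at 0 in all libraries. The sources used here do not state how such reads were assigned, so the level of Bnip3 is uncertain.

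Bnip3l, which encodes NIX, the paralog of BNIP3 that clears mitochondria from maturing red cells (chromosome 14), was at 40.7, 43.5, 40.3 and 34.7 TPM in Opa1-/- libraries. The reconstituted libraries were at 46.2, 44.4, 43.2 and 46.9 TPM. Opa1-/- library 2 lay inside the range of the reconstituted group, and library 4 was the lowest. The difference of -0.18 (SE 0.07) did not pass (adjusted p = 0.0625). Without Opa1-/- library 2 it was -0.22 (adjusted p = 0.0349), and with chromosome medians removed -0.01 (adjusted p = 0.903). Bnip3 made up 42.5% to 46.7% of the summed Bnip3 and Bnip3l TPM in Opa1-/- libraries and 33.2% to 35.04% in reconstituted libraries. The sum itself was 71.2 ± 5.10 against 68.4 ± 1.71 TPM, with overlapping ranges. These shares do not depend on the scaling between libraries and are given as a description.

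Fundc1, an outer membrane receptor whose binding to LC3 is set by phosphorylation (X chromosome, 17556564 to 17572325, minus strand), showed the largest fall among the 39 genes. It was at 39.0, 39.2, 40.0 and 39.0 TPM in Opa1-/- libraries and at 54.1, 54.7, 57.1 and 56.8 TPM in reconstituted libraries. The groups were far apart compared with the spread inside each. The difference was -0.49 (SE 0.03, adjusted p = 3.2e-05). X-linked genes as a whole were lower in Opa1-/- libraries, with a median of -0.36 over 301 well-expressed genes. With that median removed Fundc1 was at -0.15 (adjusted p = 0.0135), so the call held at a smaller size.

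Fkbp8, a membrane-anchored immunophilin that acts as a mitophagy receptor (chromosome 8), was at 114, 119, 111 and 109 TPM against 122, 117, 117 and 120 TPM. The ranges overlapped through Opa1-/- library 2, and the difference was -0.07 (SE 0.04, adjusted p = 0.171). Its direction depended on the treatment of the chromosomes. It was 0.11 (adjusted p = 0.0476) with chromosome medians removed, and -0.12 (adjusted p = 0.0361) with trends in exon length and GC content removed.

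Pink1, the kinase that accumulates on damaged mitochondria (chromosome 4), was at 16.7, 18.2, 13.01 and 12.7 TPM in Opa1-/- libraries 1 to 4. It was at 19.7, 20.4, 15.4 and 17.8 TPM in reconstituted libraries 1 to 4. Libraries 3 and 4 were lower than 1 and 2 in both groups, and each Opa1-/- library was below the reconstituted library of the same number. The difference was -0.27 (SE 0.13, adjusted p = 0.135). With the replicate number as a block it passed (adjusted p = 0.0206), and with chromosome medians removed it was -0.12 (adjusted p = 0.531). Pgam5, a mitochondrial phosphatase that acts on FUNDC1, was at 57.0 ± 6.60 against 59.4 ± 1.82 TPM (-0.06, adjusted p = 0.576). Gm26718 on the opposite strand, listed at 0 in all libraries, overlaps 58.1% of the exon bases of Pgam5. The level of Pgam5 is therefore uncertain for the same reason as that of Bnip3.

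**Figure D3:**
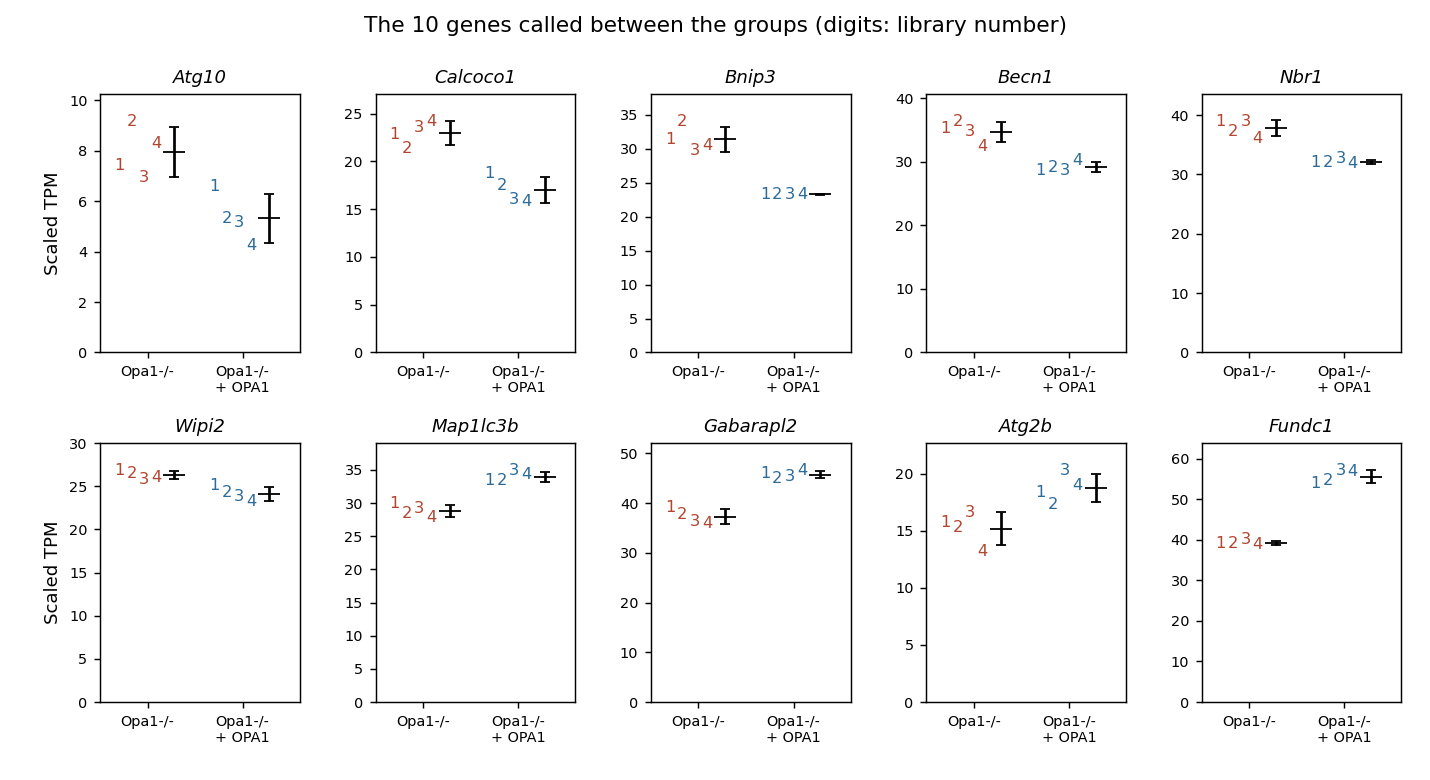
Scaled TPM of the 10 called genes, each axis starting at 0, with a digit for each library and a bar for the group mean ± SD (n = 4). The groups do not overlap for any of the 10, which were picked by the call on these same values. Of all genes tested, 36.3% do not overlap.

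Among receptors that bind ubiquitin and Atg8 proteins, Calcoco1 and Nbr1 rose and none fell. With Tbk1 included, 2 of 5 genes were called (40%, against 33.0% of all genes). Calcoco1, a receptor for endoplasmic reticulum and Golgi fragments (chromosome 15, 102706777 to 102722178, minus strand), was at 22.8, 21.4, 23.6 and 24.2 TPM in Opa1-/- libraries. It was at 18.7, 17.5, 16.1 and 15.8 TPM in reconstituted libraries. The lowest Opa1-/- library was above the highest reconstituted library. The difference was 0.42 (SE 0.06, adjusted p = 0.00137), and it was 0.39 (adjusted p = 0.00323) with chromosome medians removed.

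Nbr1, a receptor for ubiquitinated aggregates and peroxisomes (chromosome 11, 101552149 to 101581951, plus strand), was at 38.9, 37.2, 39.0 and 36.1 TPM. Reconstituted libraries were at 32.0, 32.0, 32.7 and 31.8 TPM. The groups did not overlap, and the difference was 0.23 (SE 0.04, adjusted p = 0.00219). On the deposited TPM without scaling the adjusted p was 0.0520. The other genes of this role were not called. Optn, which recognises ubiquitin on mitochondria, was at 17.6 ± 0.752 against 18.9 ± 1.19 TPM (adjusted p = 0.214). Tax1bp1, a receptor for aggregates, was at 67.2 ± 2.61 against 66.8 ± 1.68 TPM (adjusted p = 0.890). Tbk1, the kinase that activates OPTN, was at 68.0 ± 4.21 against 62.6 ± 1.71 TPM (adjusted p = 0.102). Without Opa1-/- library 3 the adjusted p was 0.0287.

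None of the 4 genes of the ULK1 kinase complex was called by limma-trend, against 33.0% of all genes. None had an unadjusted p below 0.05, and limma-voom on recovered reads also called 0. Ulk1, the initiating kinase, was at 22.0 ± 1.90 against 22.3 ± 0.888 TPM (95% interval of the difference -0.17 to 0.12). Its paralog Ulk2 was at 15.6 ± 2.26 against 14.7 ± 0.739 TPM. The regulatory subunit Atg13 was at 22.6 ± 1.83 against 21.2 ± 0.285 TPM, and its partner Atg101 at 71.9 ± 4.13 against 71.5 ± 3.18 TPM. Opa1-/- library 4 was the lowest of all 8 libraries for Ulk1, Ulk2 and Atg13. Without it Ulk2 was at 0.18 (adjusted p = 0.0200) and Atg13 at 0.14 (adjusted p = 0.0103). Ulk1 took 58.6% ± 2.02 and 60.3% ± 2.00 of the summed Ulk1 and Ulk2 TPM, with overlapping ranges.

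In the lipid kinase complex, Becn1 rose (1 of 3 genes called, 33.3%, against 33.0% of all genes). Becn1 encodes Beclin 1, the scaffold of the complex that BCL2 can hold inactive (chromosome 11, 101285952 to 101302286, minus strand). It was at 35.2, 36.4, 34.8 and 32.4 TPM in Opa1-/- libraries and at 28.7, 29.2, 28.6 and 30.2 TPM in reconstituted libraries. The groups did not overlap, and the difference was 0.24 (SE 0.04, adjusted p = 0.00337). Cntd1 on the opposite strand overlaps 43.9% of its exon bases and was itself at 0.540 against 0.417 TPM. The sources used here do not state how reads from such overlaps were assigned, so the level of Becn1 is uncertain too. Genes on the opposite strand also overlap 28.3% of the exon bases of Gabarapl1, 19.3% of those of Atg4d and 17.6% of those of Uvrag. Atg14, which directs the complex to autophagosome formation, was at 7.51 ± 0.576 against 8.21 ± 0.655 TPM (adjusted p = 0.263). Uvrag, which directs it to endosomes, was at 10.97 ± 0.749 against 11.2 ± 0.168 TPM (adjusted p = 0.783).

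Genes of lipid supply and lipid binding went both ways, with 2 of 5 tested genes called (40%, against 33.0% of all genes). Atg2b, a lipid transfer protein that feeds the growing membrane (chromosome 12, 105616136 to 105685211, minus strand), was at 15.7, 15.3, 16.6 and 13.1 TPM against 18.3, 17.3, 20.2 and 19.0 TPM. All Opa1-/- libraries were below all reconstituted libraries, and the difference was -0.29 (SE 0.08, adjusted p = 0.0178). The call was lost on the deposited TPM (0.0794), without reconstituted library 3 (0.0556) and with chromosome medians removed (-0.18, adjusted p = 0.0701). Its paralog Atg2a was at 17.2 ± 1.04 against 18.5 ± 0.826 TPM (adjusted p = 0.211). The summed Atg2a and Atg2b TPM was 32.4 ± 2.42 against 37.2 ± 1.08 TPM, without overlap.

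Wipi2, a reader of the lipid mark that recruits the conjugation machinery (chromosome 5, 142627698 to 142670588, plus strand), was at 26.8, 26.5, 25.8 and 25.98 TPM against 25.1, 24.3, 23.8 and 23.2 TPM. The difference was small, 0.12 (SE 0.04, adjusted p = 0.0425). The call was lost with the replicate block (0.0558), with chromosome medians removed (0.06, adjusted p = 0.292), on the deposited TPM (0.217), and without any 1 of 6 libraries. Adjusted p was 0.0970, 0.0848 and 0.0519 without Opa1-/- library 1, 2 and 3, and 0.0873, 0.124 and 0.129 without reconstituted library 2, 3 and 4. Wipi1, its paralog (chromosome 11), was at 16.6, 15.5, 14.9 and 12.3 TPM against 19.6, 18.9, 16.4 and 16.1 TPM (-0.25, SE 0.10, adjusted p = 0.0790). In both groups its level was lower in libraries 3 and 4 than in 1 and 2, and with the replicate block it passed (adjusted p = 0.0168). It also passed with chromosome medians removed (-0.29, adjusted p = 0.0453). Wipi2 made up 61.8% to 67.9% of the Wipi1 and Wipi2 total in Opa1-/- libraries and 56.2% to 59.2% in reconstituted libraries, without overlap.

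Atg9a, the lipid scramblase carried by ATG9 vesicles, was at 9.91, 9.86, 9.87 and 7.29 TPM against 10.6, 10.7, 10.8 and 10.3 TPM (-0.19, SE 0.09, adjusted p = 0.146). The groups did not overlap, and Opa1-/- library 4 stood well below the other 3. Without it the difference was -0.09 (adjusted p = 0.122). Gm29253, on the same strand, covers 31.8% of its exon bases.

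In the Atg8 family, Gabarapl2 and Map1lc3b fell and the other 3 genes were not called (40% called, against 33.0% of all genes). Gabarapl2, whose product is also known as GATE-16 (chromosome 8, 111940703 to 111953612, plus strand), was at 39.2, 37.8, 36.3 and 36.0 TPM in Opa1-/- libraries. It was at 45.9, 44.9, 45.4 and 46.5 TPM in reconstituted libraries. The groups were clearly apart, and the difference was -0.29 (SE 0.04, adjusted p = 0.000727).

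Map1lc3b, which encodes LC3B, the form most used to mark autophagosomes (chromosome 8, 121590361 to 121598760, plus strand), was at 29.9, 28.5, 29.2 and 27.8 TPM. Reconstituted libraries were at 33.4, 33.4, 34.9 and 34.3 TPM. The groups did not overlap, and the difference was -0.23 (SE 0.04, adjusted p = 0.00217). Both genes lie on chromosome 8, where the median of 524 well-expressed genes was -0.18. With chromosome medians removed Gabarapl2 was at -0.10 (adjusted p = 0.0804) and Map1lc3b at -0.04 (adjusted p = 0.426), and both calls were lost. Of the 50-base words in their transcripts, 12.2% and 6.01% recur in other annotated genes, which include Gm3724 at 1.75 against 1.87 TPM and Gm6055 at 4.74 against 5.66 TPM.

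Gabarap, the most abundant family member, differed by 0.05 (95% interval -0.06 to 0.15). Gabarapl1 was at 95.02, 99.9, 77.7 and 78.9 TPM against 97.99, 98.7, 88.3 and 86.6 TPM (-0.09, adjusted p = 0.503), again lower in libraries 3 and 4 of both groups. Map1lc3a was at 47.8 ± 3.23 against 47.5 ± 1.70 TPM (0.01, adjusted p = 0.927). With trends in exon length and GC content removed, Map1lc3a was at -0.12 (adjusted p = 0.0387). The 5 genes summed to 413 ± 15.1 against 425 ± 2.58 TPM, with overlapping ranges. Gabarapl2 made up 9.03% ± 0.419 of the sum against 10.8% ± 0.120, and Map1lc3b 6.99% ± 0.403 against 7.999% ± 0.158, both without overlap. Gabarap made up 51.2% ± 2.21 and 48.2% ± 1.78, with overlap.

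**Figure D4:**
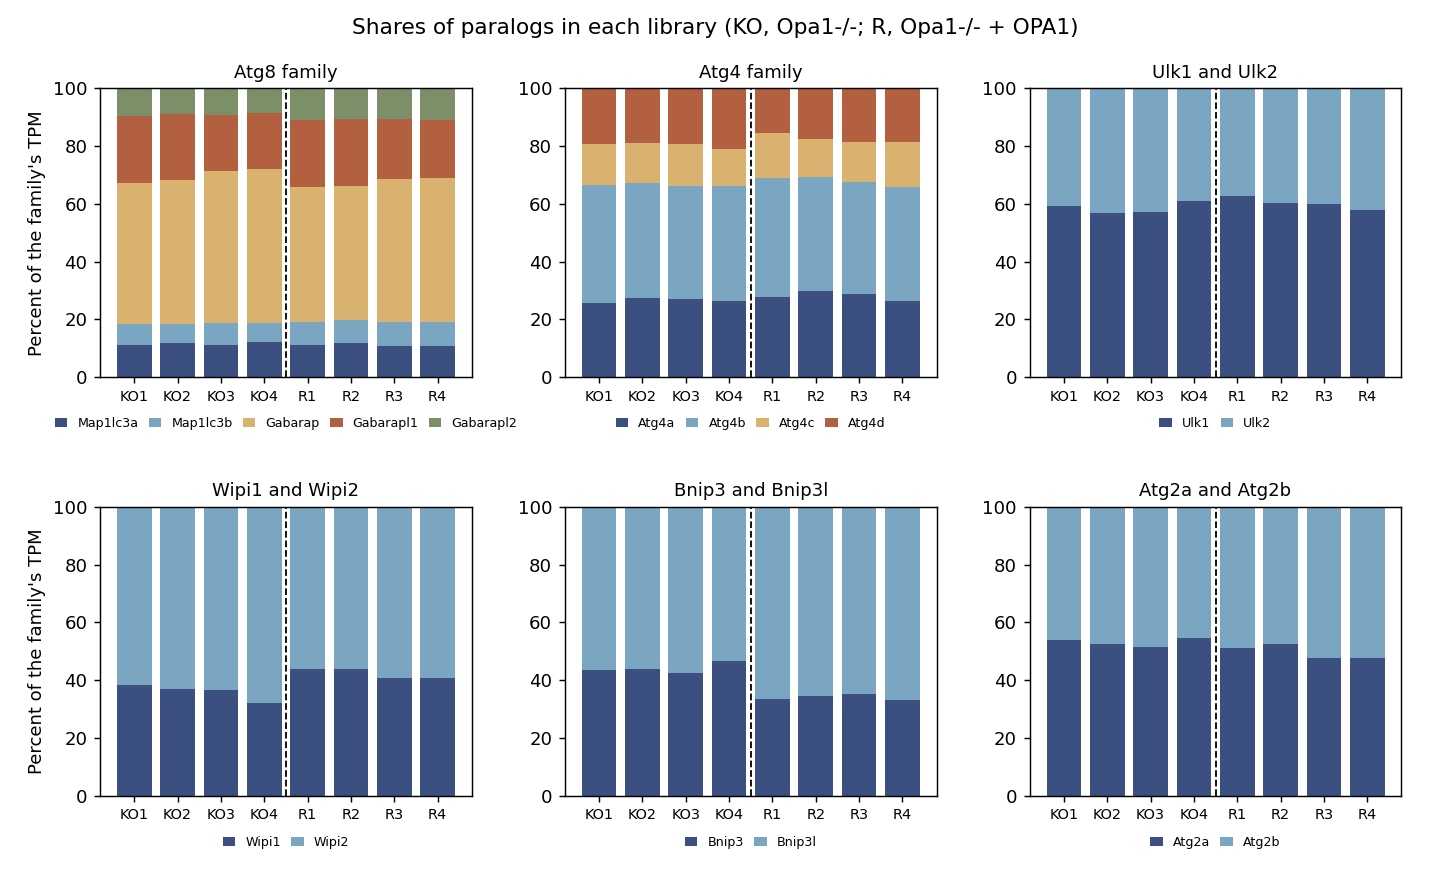
Percent of the summed TPM of each paralog family taken by each gene, 1 bar per library, with the groups parted by a dashed line. The Bnip3 share is 42.5% to 46.7% in all 4 Opa1-/- libraries and 33.2% to 35.04% in all 4 reconstituted libraries, and the Ulk1 share overlaps between groups.

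The Atg4 proteases trim Atg8 proteins before they are attached to lipid and later release them. None of the 4 was called by limma-trend, against 33.0% of all genes. For 1 the unadjusted p was below 0.05 (Atg4a), and limma-voom called 0. Atg4b, the main protease, was at 17.8 ± 0.327 against 18.3 ± 0.597 TPM, with a 95% interval of the difference from -0.14 to 0.05. Atg4a (X chromosome) was at 10.9, 12.3, 12.4 and 11.6 TPM against 12.7, 13.2, 13.5 and 12.6 TPM. Its groups did not overlap, but the difference of -0.13 (SE 0.05) had adjusted p = 0.0901. With chromosome medians removed it was at 0.21 (adjusted p = 0.0169), higher in Opa1-/- libraries, so its direction depends on whether the level of other X-linked genes is the reference. Of its 50-base words 51.2% recur elsewhere, most in Atg4a-ps, which was at 0.185 against 0.214 TPM. Atg4c was at 6.15 ± 0.461 against 6.72 ± 0.598 TPM and Atg4d at 8.69 ± 0.446 against 8.12 ± 0.850 TPM, with adjusted p of 0.302 and 0.394.

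Among the conjugation enzymes, 1 of 7 was called (14.3%, against 33.0% of all genes). Atg10, the E2-like enzyme that transfers ATG12 to ATG5 (chromosome 13, 90935356 to 91223968, minus strand), was at 7.43, 9.17, 6.93 and 8.29 TPM in Opa1-/- libraries. It was at 6.60, 5.32, 5.14 and 4.24 TPM in reconstituted libraries. The groups did not overlap, although Opa1-/- library 3 and reconstituted library 1 were close. The difference was 0.51 (SE 0.12, adjusted p = 0.0109), the largest rise among the 39 genes and from a low level. The products that Atg10 joins were not called. Atg12 was at 43.8 ± 1.47 against 44.5 ± 2.14 TPM, and Atg5 at 57.4 ± 2.76 against 54.1 ± 1.87 TPM, with 95% intervals of -0.12 to 0.08 and -0.02 to 0.18.

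Atg7, the E1-like enzyme of both conjugation arms, was at 15.2 ± 0.129 against 15.3 ± 0.348 TPM, with a 95% interval from -0.09 to 0.08. Atg3, the E2-like enzyme for Atg8 proteins, was at 41.9 ± 3.24 against 44.2 ± 2.35 TPM (adjusted p = 0.385). Atg16l1, which places the ATG12-ATG5 conjugate on the membrane, was at 13.6 ± 0.441 against 14.2 ± 0.310 TPM (adjusted p = 0.355). Its paralog Atg16l2 was at 3.02 ± 0.177 against 2.65 ± 0.228 TPM (adjusted p = 0.199).

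Position on the chromosome moved with several of these results. For each gene, the median difference of other well-expressed genes starting within 5 Mb was taken, a measure chosen after the values were seen. Around Fundc1 the median of 25 neighbours was -0.34, and 21 of them were less reduced than Fundc1. The median was -0.22 over 46 neighbours of Gabarapl2 and -0.18 over 76 neighbours of Map1lc3b, close to the genes' own differences. Around Atg2b it was -0.12 over 38 neighbours. Neighbours of Bnip3l had a median of -0.24 (39 genes), below Bnip3l itself, and those of Atg4a -0.42 (25 genes). By contrast, Atg10 was above all of its 24 neighbours (median 0.06), Calcoco1 above 81 of 86 (median -0.01) and Bnip3 above 48 of 52 (median 0.13). Becn1 and Nbr1 lie close together on chromosome 11 and share neighbours, with medians of 0.08 and 0.07. Their differences were above 103 of 133 and 101 of 130 neighbours.

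**Figure D5:**
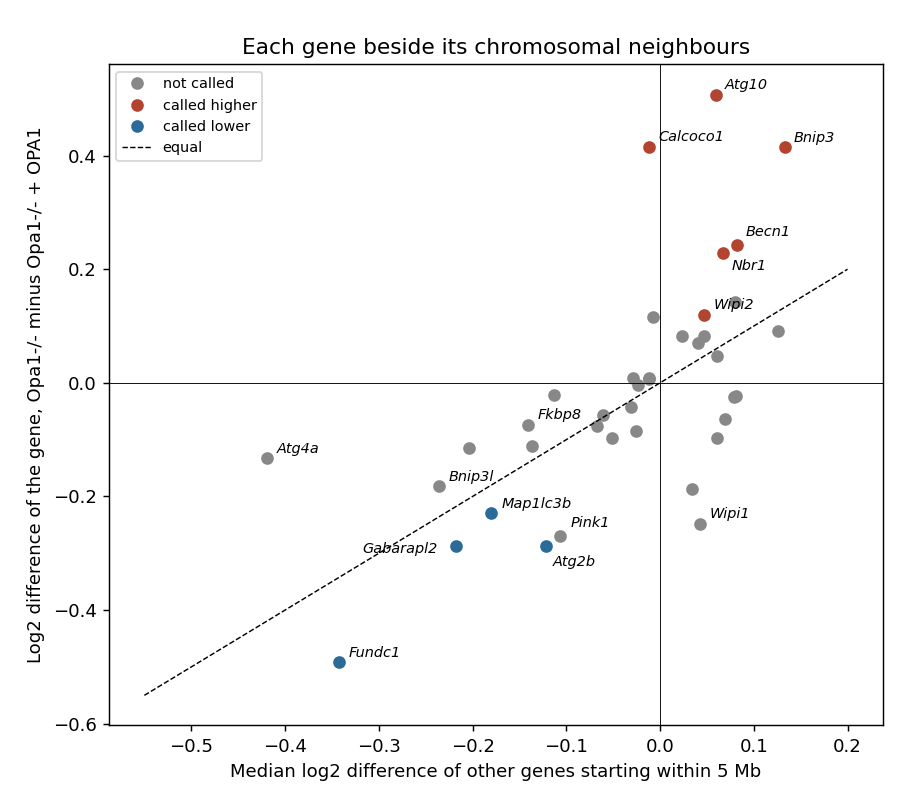
Log2 difference of each of the 39 genes against the median difference of other well-expressed genes starting within 5 Mb, with a dashed line where both are equal. Map1lc3b and Gabarapl2 lie near the line, and Atg10, Calcoco1 and Bnip3 lie well above it.

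Opa1-/- library 4 also stood apart for these genes. It was the lowest of all 8 libraries for 17 of the 39 genes (43.6%), against 26.4% of all genes tested. Deviations of single libraries from the others of their group ran along exon length, with Spearman rho of -0.46 for this library, 0.47 for Opa1-/- library 3, 0.35 for Opa1-/- library 1 and -0.27 for reconstituted library 2 across 9406 genes, which are not independent replicates. The median exon length was 4410 bases for the 39 genes and 3709.5 bases for all genes tested. The difference between the groups also ran along exon length (Spearman rho -0.21 across the 9406 genes). With length and GC trends removed, 7 of the 39 genes were called higher and 6 lower, and 2802 and 2306 of all 14231 genes were. Without Opa1-/- library 4, called genes of the 39 were 8 higher and 4 lower. Of all genes 18.4% and 19.6% were, both above their shares with all libraries. The differences of Bnip3l and Wipi1 were then -0.12 and -0.16. Its part in the other values was not tested.

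Other genes of the pathway were followed in 6 lists of 104 genes, of which 99 were tested. Of these 23 rose and 13 fell (36.4%, against 33.0% of all genes), with a median of -0.03. With chromosome medians removed 18 were higher and 5 lower, against 15.3% and 11.2% of all genes. The counts are descriptions.

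Of 14 genes of initiation, lipid kinase and membrane supply, 4 rose and 1 fell (35.7% called, against 33.0%). Bcl2, which binds Beclin 1, rose from 17.0 to 20.4 TPM (0.24, adjusted p = 0.0133), Tecpr1 by 0.22 and Pik3r4, a regulatory subunit of the lipid kinase, by 0.19. Wdr45, an X-linked relative of the WIPI genes, fell by 0.27 (adjusted p = 0.00957). The median of 301 well-expressed X-linked genes was -0.36, a larger fall than that of Wdr45. Rb1cc1, which encodes the FIP200 scaffold of the ULK1 complex, was at 12.2 ± 0.320 against 13.1 ± 0.312 TPM (adjusted p = 0.106).

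Of 11 tested genes among other cargo receptors, 3 rose and 1 fell (36.4% called, against 33.0%). Sqstm1, which encodes p62, was at 284, 276, 267 and 261 TPM in Opa1-/- libraries and 233, 236, 221 and 218 TPM in reconstituted libraries (0.26, SE 0.04, adjusted p = 0.00174), without overlap. Stbd1, a glycogen receptor, rose by 0.38 and Tex264, a receptor for endoplasmic reticulum, by 0.26. Nufip1, a ribosome receptor, fell by 0.26. Well-expressed genes had a median of 0.10 on chromosome 9, which holds Tex264, and -0.17 on chromosome 14, which holds Nufip1. Calcoco2 was at 0.0673 against 0.0164 TPM, far under the filter.

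Of 23 tested genes among other mitophagy genes, 5 rose and 3 fell (34.8% called, close to the 33.0% of all genes). Nipsnap1 and Nipsnap2, matrix proteins that can be exposed on damaged mitochondria, rose by 0.35 (adjusted p = 0.000493) and 0.36 (adjusted p = 0.00634). Tbc1d17, a GTPase-activating protein for RAB7, rose by 0.39 (adjusted p = 0.00112). Vps13d, a lipid transfer protein, fell by 0.37, Csnk2a2, a kinase subunit that acts on FUNDC1, by 0.28 and Tomm20, an import receptor, by 0.19. Csnk2a2 and Tomm20 lie on chromosome 8, where the median of 524 well-expressed genes was -0.18. Vps13d lies on chromosome 4, where the median was -0.15, and Tbc1d17 on chromosome 7, where it was 0.11.

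Of 23 tested genes of nutrient and energy signalling upstream of ULK1, 4 rose and 2 fell (26.1% called, below the 33.0% of all genes). Ddit4 showed the largest rise in the 6 lists. Ddit4, which encodes the mTORC1 inhibitor REDD1, was at 58.1, 60.6, 60.6 and 65.3 TPM against 27.3, 29.7, 28.6 and 31.9 TPM (1.04, SE 0.06, adjusted p = 7.7e-06). Sesn2, a leucine sensor that also restrains mTORC1, rose from 17.4 ± 1.46 to 29.4 ± 4.40 TPM (0.72, adjusted p = 0.000810). Akt1s1, which encodes the mTORC1 subunit PRAS40, rose from 69.04 ± 2.22 to 95.6 ± 1.13 TPM (0.46, adjusted p = 4.4e-05). It lies on chromosome 7, where the median of 644 well-expressed genes was 0.11. Prkab2, a subunit of AMP-activated kinase, fell by 0.26 and Sesn1 by 0.21.

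Of 13 tested transcription factors known to act on autophagy genes, 4 rose and 4 fell (61.5% called, against 33.0% of all genes). Ddit3, encoding CHOP, rose by 0.53, Cebpb by 0.49 and Foxo1 by 0.44, from 1.59 to 2.53 TPM. Foxo3 fell from 21.9 ± 0.845 to 15.5 ± 1.35 TPM (-0.47, adjusted p = 0.000682) and Mitf by 0.35. Tfe3, an X-linked relative of Tfeb, fell from 22.5 ± 0.808 to 16.6 ± 1.23 TPM (-0.42, adjusted p = 0.000807). The median of 301 well-expressed X-linked genes was -0.36. Tfeb itself was low, at 2.27 ± 0.165 against 2.13 ± 0.245 TPM (adjusted p = 0.621), and Atf4 was at 655 ± 77.4 against 545 ± 61.1 TPM (adjusted p = 0.0732).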

How the data were processed

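RNA of 8 libraries was extracted with an RNeasy Plus kit and prepared with the NEBNext Ultra II RNA kit, per the labels' protocols. The submitters' processing notes name bcl2fastq 2.17, STAR 2.5.2b, featureCounts and Subread 1.5.2, and the builds mm10 and GRCh38. Strand setting and annotation are not given in the sources used here. The authors deposited TPM values per gene, which have the same sum in every library. Relative read counts were recovered from the TPM steps, with 94.9% to 95.3% of low values whole within 0.05. No pair of libraries in a group agreed within sampling noise (chi-square per degree of freedom at least 5.21).

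Libraries were scaled to one another with a trimmed mean of log2 ratios (30% and 5% trimmed), filtered at 1 TPM in 4 libraries, transformed as log2(TPM + 1), and fitted with limma-trend (limma 3.58.1, R 4.3.3), group only, with Benjamini-Hochberg adjustment. Same-numbered libraries deviated together (r = 0.246, 0.225, 0.317 and 0.119 over 9416 genes), although Opa1-/- library 3 and reconstituted library 4 did so about as much as the fourth pair (r = 0.114). With all 4 above 0.1, the numbers were taken to pair the libraries, a pairing that comes from the data and not from the labels. It entered only the replicate block, an alternative, and the reported calls do not use it. Alternatives were the deposited scaling, upper-quartile scaling, a pseudocount of 0.1, no filter, limma-voom on recovered reads, the replicate block, removal of chromosome medians or of length and GC trends, and leaving out libraries. The script was tested on simulated data.

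Gene coordinates and overlaps are from GENCODE M21 (GRCm38), and promoters from RefSeq. All 40 genes were described. From the other lists, up to 3 of the largest rises and falls were named, with Sqstm1, Rb1cc1, Tfeb, Tfe3, Atf4 and Opa1. A result for a further gene is not reported here. The genes and lists were chosen with earlier results of these data known. The neighbour medians and overlap checks were added after the values were seen.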

Additional observations from a re-analysis of the deposited data

Results flagged for a closer look

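In 4 of 80 groups of 4 libraries, a library stood far from the other 3 by Dixon's criterion, where chance gives about 1 in 20. Atg9a was at 7.29 TPM in Opa1-/- library 4, against 9.86 to 9.91 TPM in the others. Ulk2 was at 12.2 TPM in the same library, against 16.3 to 17.0 TPM. In Opa1-/- + OPA1 library 4, Atg13 was at 20.8 TPM, against 21.3 to 21.4 TPM, and Atg14 at 9.19 TPM, against 7.82 to 7.95 TPM. None of the 4 genes was called between the groups.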

How the results depend on the processing

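Under 17 alternatives, 5 of the 10 called genes kept their call (Bnip3, Calcoco1, Becn1, Atg10 and Fundc1), 5 lost it under at least 1, and none changed sign. Of 29 uncalled genes, 9 were called under at least 1 alternative. The matching shares over all genes tested are not given here. With chromosome medians removed, 2 of the 39 genes were lower, other autophagy genes were 18 higher and 5 lower (23 and 13 as reported), and Atg4a (0.21) and Fkbp8 (0.11) reversed. With length and GC trends removed Map1lc3a reversed to -0.12. On the deposited TPM, 1529 of all genes were lower (2392 as reported) and 7 other autophagy genes were lower. Without both libraries numbered 3, other autophagy genes were 13 higher and 8 lower, and of all 14299 genes tested there 1634 were higher and 1750 lower. The cause was not tested. With the replicate block, 5 of the 39 genes were higher and 6 lower, and of all 14272 genes 2361 were higher and 2395 lower. Of the 10 called genes 9 were also called with the block. Wipi2 was lost, Pink1 and Wipi1 were gained, and no other call among the 39 changed. Leaving out 1 library gave 5 to 8 higher and 3 to 5 lower genes of the 39, and 1726 to 2572 higher and 1795 to 2733 lower of all genes. No scaling moved the median of all genes by over 0.1. Half-widths of the 95% intervals of uncalled genes were 0.0861 to 0.2868, before adjustment for the number of genes tested.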

Other observations

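Of 15 genes that act when autophagosomes fuse with lysosomes, 3 rose and 2 fell in Opa1-/- libraries, against 33.0% of all genes called. Vps39, a subunit of the HOPS tethering complex, was at 11.7 ± 0.394 against 9.56 ± 0.411 TPM (SD, n = 4 each, difference 0.27, limma-trend adjusted p = 0.00339). Vps16 and Vps11, core subunits shared by the HOPS and CORVET complexes, rose by 0.27 (adjusted p = 0.00893) and 0.19 (adjusted p = 0.0201). Stx17, the SNARE protein of the autophagosome, fell from 13.5 ± 0.390 to 11.2 ± 0.672 TPM (-0.24, adjusted p = 0.00803). Well-expressed genes had a median of -0.15 on chromosome 4, which holds Stx17, and 0.10 on chromosome 9, which holds Vps11. Rab7, the small GTPase of late endosomes, fell by 0.10 (adjusted p = 0.0431). The median of the 15 genes was -0.05.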
